A study of Mus musculus with 8 samples.

Results

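The 41 genes described here encode enzymes and carriers of glycolysis, of pyruvate entry into mitochondria, of the tricarboxylic acid (TCA) cycle and of the linked shuttles, and they are given by a list of mouse gene symbols. All 41 were found among the 53012 genes of the count table, and all 41 passed the filter on low counts that kept 15474 genes for testing. By role, 13 act in glycolysis, 10 in pyruvate entry and its control, 10 in the TCA cycle, and 8 as NADP-linked enzymes, malate-aspartate and glycerol phosphate shuttle enzymes or carriers. For Aldoa 2 rows share the symbol, and the row with the larger total was used, since the other held 3 to 14 counts per mouse.

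Bulk RNA-seq was done on isolated pancreatic islets at 17 months of age, from 4 βIgf1r mice (labelled CTRL) and 4 βIgf1rKD mice (labelled KD). All 8 mice carried Igf1r alleles floxed around exon 3 on both chromosomes. The βIgf1rKD mice (Ins1-CreERT2+/- Igf1r flox/flox) had in addition a Cre recombinase driven by a rat insulin promoter and inducible by tamoxifen, and received 5 daily injections of tamoxifen at 0.075 mg per g body weight. The βIgf1r mice (Ins1-CreERT2-/- Igf1r flox/flox) lacked the recombinase and received corn oil, so that effects of the deletion, the recombinase and the drug cannot be told apart. Islets were taken 7 days after the last injection, and the recombinase acts in β-cells only, while whole islets hold other cell types too.

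Glycolysis splits glucose into pyruvate in the cytosol, and pyruvate then enters mitochondria, where pyruvate dehydrogenase turns it into the acetyl-CoA that citrate synthase feeds into the TCA cycle. In β-cells this route couples blood glucose to ATP production and so to insulin release, and shuttles carry the reducing equivalents of glycolysis into mitochondria because lactate production is kept low. Pyruvate dehydrogenase is switched off by a family of kinases, the PDKs, and malate, isocitrate and citrate leave mitochondria to supply NADPH and biosynthesis.

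Total counts lay between 21633925 and 42391106 per mouse, and the members took 0.328% to 0.549% of them. CPM are counts scaled to a common library size, where each total was first multiplied by its TMM factor, the normalization factor of edgeR. These factors ran from 0.803 (M145) to 1.234 (M148), so equal CPM do not mean equal shares of the total counts. Igf1r reached 53.6 ± 7.21 CPM (SD, n = 4) in βIgf1r and 50.7 ± 4.996 CPM in βIgf1rKD, a log2 fold change of -0.08 (SE 0.11). Counts over a whole gene do not show the loss of 1 exon. The 10 β-cell markers took 16.2% to 22.5% of the counts in the βIgf1r libraries and 10.2% to 22.1% in βIgf1rKD. In βIgf1rKD the shares were 10.2% (M145), 22.1% (M146), 11.7% (M149) and 13.9% (M150). Of these markers, 6 were lower and 4 higher in βIgf1rKD, and 1 of 10, a lower one, had an unadjusted p under 0.05 (4.12% of all genes tested). Each had at least 1770 counts in every mouse. The 12 acinar markers held between 1.999% and 14.4% in the βIgf1r libraries and 4.18% to 16.5% in βIgf1rKD, with 12 of 12 higher in βIgf1rKD and 0 of 12 at an unadjusted p under 0.05. The 11 endothelial markers were all lower in βIgf1rKD, 6 of them at an unadjusted p under 0.05 (4.12% of all genes tested), with log2 fold changes of -0.38 to -0.16. The endothelial score is the mean over these markers of log2 CPM standardized per gene. It was -0.04 to 1.29 in the βIgf1r mice and -1.05 to -0.29 in the βIgf1rKD mice, without overlap. A fit with this score as a covariate therefore separates it from the group poorly. Xist marked 1 of 4 βIgf1r and 3 of 4 βIgf1rKD mice (log2 CPM 8.08 to 8.68, against 0.37 to 2.76 in the others), so the mix of sexes differed. Mitochondrial genome transcripts took 0.492% of the counts of the βIgf1r mouse M152 and 0.809% of those of the βIgf1rKD mouse M146, against 2.02% to 3.87% in the other 6 mice. The part of these differences in the results below was not tested beyond the fits named there, and in whole islets fewer cells of a type and less RNA per cell cannot be told apart.

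To ask whether the genes of glucose oxidation changed when Igf1r was targeted, the quasi-likelihood test of edgeR was run on all genes between the groups. None of the 41 members passed the test. At an unadjusted p under 0.05 there were 0 of 41 members, against 4.12% of all genes tested, and at an adjusted p under 0.05 there were 0 members, against 0% of all genes. The smallest unadjusted p of a member was 0.0800 (Cs), and the smallest adjusted p was 0.987. DESeq2 called 0 members before and 0 after adjustment at the same threshold (0.0519% of all genes at the adjusted p), and limma-voom likewise 0 and 0 (0.00646% of all genes). In 0 of 41 members did the 4 βIgf1rKD mice lie apart from the 4 βIgf1r mice in log2 CPM, against 2.22% of all genes.

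The intervals of the fit give the changes that remain compatible with the data. For 40 of 41 members the 95% interval of the fold change lay within 1.5-fold either way, against 64.8% of all genes tested and 91.4% of the 8638 genes whose mean CPM lay between the lowest and the highest member. Pdk4 was the exception. Log2 fold changes, as βIgf1rKD minus βIgf1r, ran from -0.21 (Pgk1) to 0.18 (Cs), with 15 members higher and 26 lower and a median of -0.03, against a median of 0.01 over all genes. The members were measured more tightly than the average gene, with a median standard error of 0.10 against 0.14, and their median of 62.3 CPM exceeded the 13.1 CPM of all genes tested. The 8638 genes in the members' range of mean CPM had a median standard error of 0.11, close to that of the members. By role, 6 of 13 glycolytic genes, 2 of 10 genes of pyruvate entry, 4 of 10 TCA cycle genes and 3 of 8 shuttle and NADP genes were on the higher side, with medians of -0.03, -0.02, -0.04 and -0.05.

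**Figure D1:**
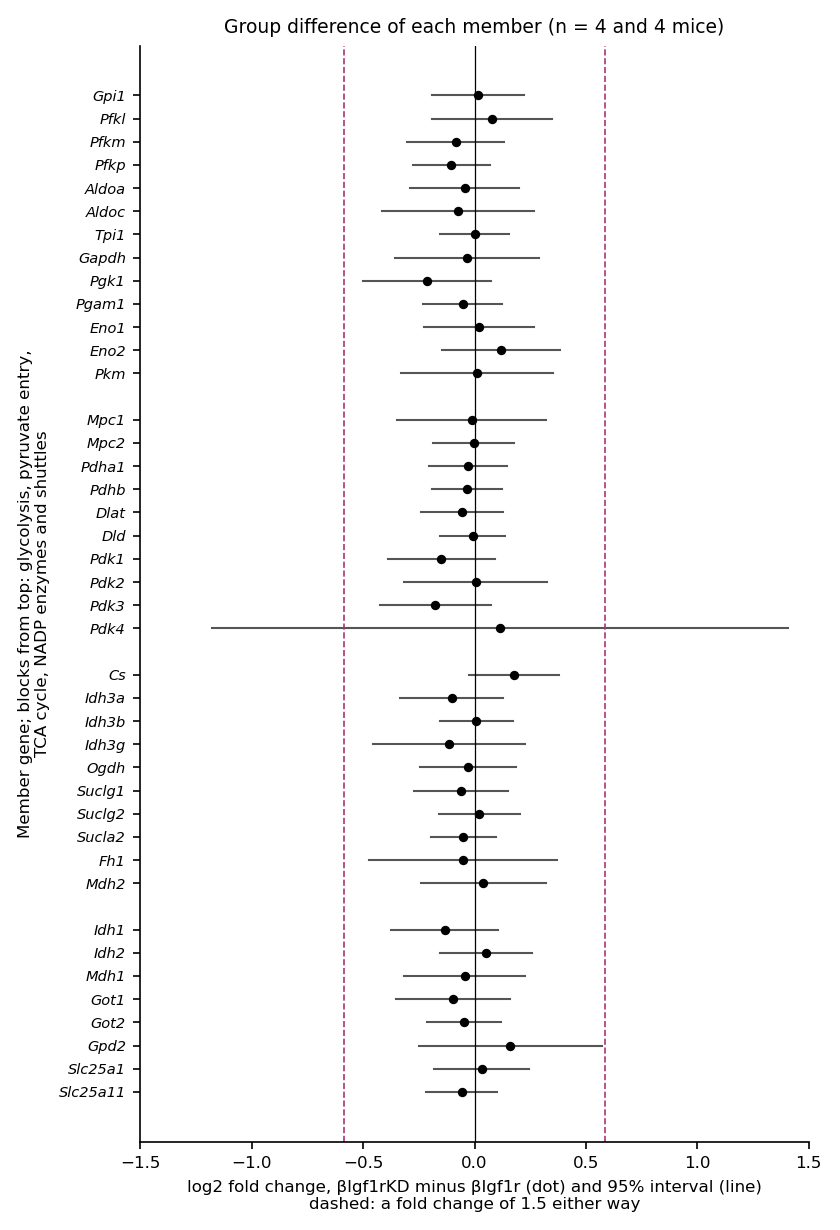
The horizontal axis gives the log2 fold change of each member, βIgf1rKD minus βIgf1r (dot), with its 95% interval (line), for 4 mice a group, and the rows are the 41 members in blocks by role. Dashed lines mark a fold change of 1.5 either way; every interval crosses 0, and only that of Pdk4 reaches past the dashed lines.

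Across the 8 mice most members varied little. The highest mouse was under 1.5 times the lowest in 34 of 41 members and under 2 times in 40, with a median of 1.33 and the smallest value, 1.11, for Tpi1, the triose phosphate isomerase. The mice with the most extreme values were M151, lowest of the 8 in 12 members, M153, highest in 12, and M146, lowest in 11 and highest in 9. M151 and M153 are both βIgf1r mice, so the widest spread across the list lay inside the control group as well as inside the other.

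**Figure D2:**
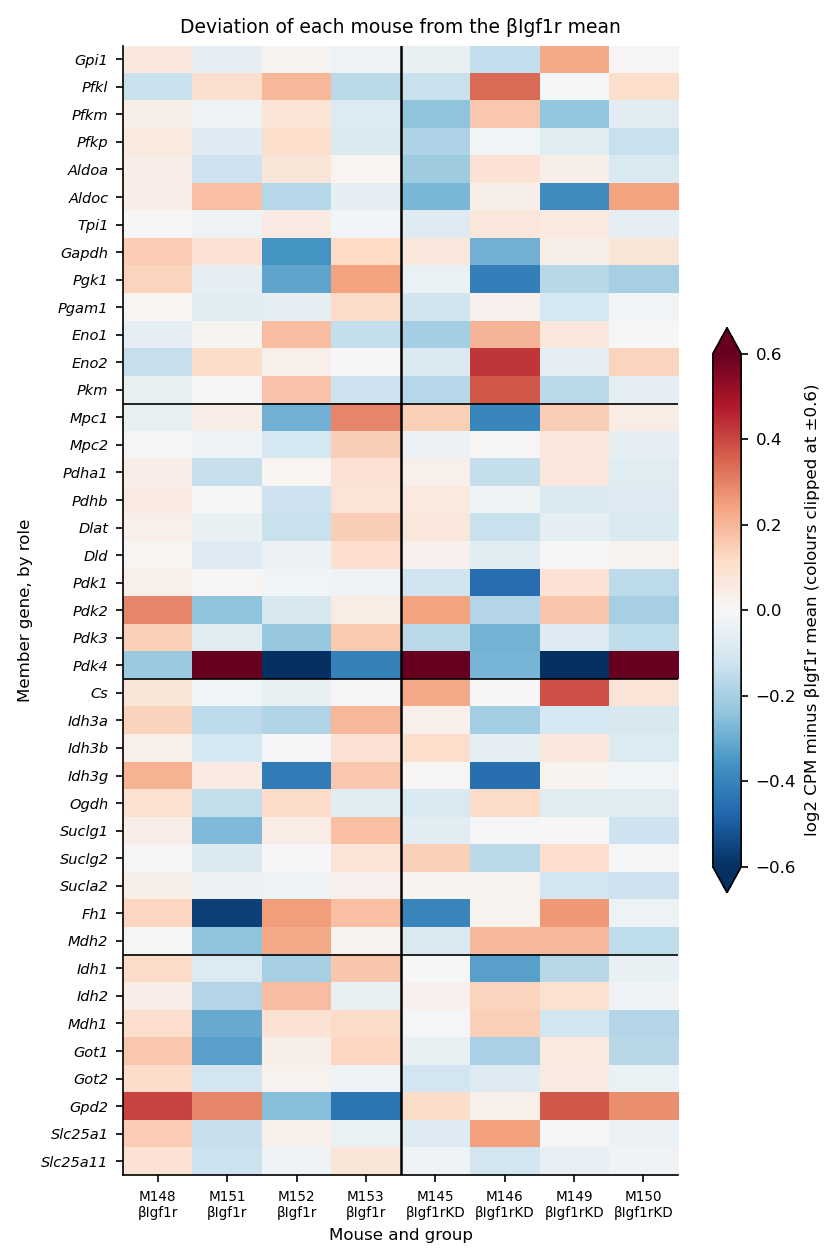
Each cell gives the log2 CPM of 1 member (rows, in blocks by role) in 1 mouse (columns, βIgf1r left and βIgf1rKD right of the vertical line) minus the mean of the 4 βIgf1r mice; colours are clipped at 0.6 log2 units either way. In no row do the 4 mice of 1 group all lie above those of the other, the strongest colours are those of Pdk4, and the columns M152 and M146 share low Gapdh, Pgk1, Mpc1 and Idh3g.

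Among the glycolytic genes, Pgk1 had the largest fold change of all members. It encodes phosphoglycerate kinase, the first enzyme of glycolysis that returns ATP, and lies on the X chromosome (GENCODE M21 on GRCm38, chrX:106187100-106203699, plus strand). Its CPM were 99.1, 86.7, 72.4 and 106.7 in the βIgf1r mice M148, M151, M152 and M153, and 87.8, 67.9, 80.4 and 78.6 in the βIgf1rKD mice M145, M146, M149 and M150. The groups overlapped, since M152 lay below 3 of the βIgf1rKD mice, and the log2 fold change was -0.21 (SE 0.13, 95% interval -0.50 to 0.07, unadjusted p = 0.127). Without M152 the log2 fold change of Pgk1 was -0.31 (unadjusted p = 0.0198), and without both M152 and M146 it was -0.24 (unadjusted p = 0.0365). It was smaller without M153, at -0.13 (unadjusted p = 0.322), without M146, at -0.15 (unadjusted p = 0.282), and with the endothelial score as a covariate, at -0.045 (unadjusted p = 0.863). That score did not overlap between the groups, so the fit separates it from the group poorly.

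The counts of Pgk1 and Gapdh are uncertain, because the mouse genome holds processed pseudogenes that carry their coding sequences unchanged. Of the 31-base words of the longest coding transcript, 84.1% for Gapdh and 68.3% for Pgk1 were found in a copy, and the others in none; no reads were examined. The whole 1002-base coding sequence of Gapdh, glyceraldehyde phosphate dehydrogenase (chr6:125161715-125166467, minus strand), is present without a mismatch in Gm10359 (chr5:105862701-105863702) and in Gm12671 (chr4:91851668-91852669). Of the 1254 coding bases of Pgk1, 1252 are present without a mismatch in Gm5537 (chr3:58102996-58104247). The first 120 coding bases are shown, as sequence that a read could match in the gene and in these copies alike:
Gapdh, Gm10359 and Gm12671: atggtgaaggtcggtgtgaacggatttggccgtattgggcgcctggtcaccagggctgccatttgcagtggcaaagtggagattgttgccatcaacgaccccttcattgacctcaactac
Pgk1 and Gm5537: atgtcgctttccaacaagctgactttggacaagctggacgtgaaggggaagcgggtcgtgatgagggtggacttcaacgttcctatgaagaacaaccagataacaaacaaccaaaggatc

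The split of counts between these genes and their copies differed between mice, and the part of shared sequence in that difference was not tested. Taking the 74 pseudogenes that match Gapdh at 95% identity over at least 300 bases, the copies held 33.4% of the joint counts in M152 and 35.2% in M146, against 11.5% to 17.6% in the other 6 mice. Gm10359 and Gm12671, which do not differ in sequence, were given the same total of 9984 counts over the 8 mice. Gapdh itself reached 459, 439, 322 and 448 CPM in the βIgf1r mice M148, M151, M152 and M153, and 433, 338, 423 and 435 CPM in the βIgf1rKD mice M145, M146, M149 and M150. M152 and M146 were thus the lowest mouse of each group for the gene alone. With the copies added, Gapdh lay between 483 and 535 CPM in all 8 mice, with 508 ± 21.0 (SD, n = 4) in βIgf1r and 513 ± 6.41 in βIgf1rKD, and the log2 fold change moved from -0.03 to 0.01.

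For Pgk1 the copies, mainly Gm5537, held 36.5% of the joint counts in M152 and 36.8% in M146, against 10.6% to 23.6% in the other 6 mice. With the copies added, Pgk1 reached 112 ± 11.3 CPM in βIgf1r and 104 ± 3.76 in βIgf1rKD, and the log2 fold change moved from -0.21 to -0.12 (unadjusted p = 0.216). The largest fold change of the list thus depended on whether the copies were counted. Pgam1, the phosphoglycerate mutase, had no copy counts in 6 mice, and 2.72% and 2.01% of its joint counts went to a copy in M152 and M146. For the other 7 members with a copy at this identity the copies took at most 0.949%. Mpc1-ps, a copy of Mpc1 by its name, was not among these matches and held up to 6.04% of the joint counts in a mouse. With the copies known by name added, the log2 fold change of Mpc1 moved from -0.012 to -0.031 (edgeR unadjusted p = 0.830).

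**Figure D3:**
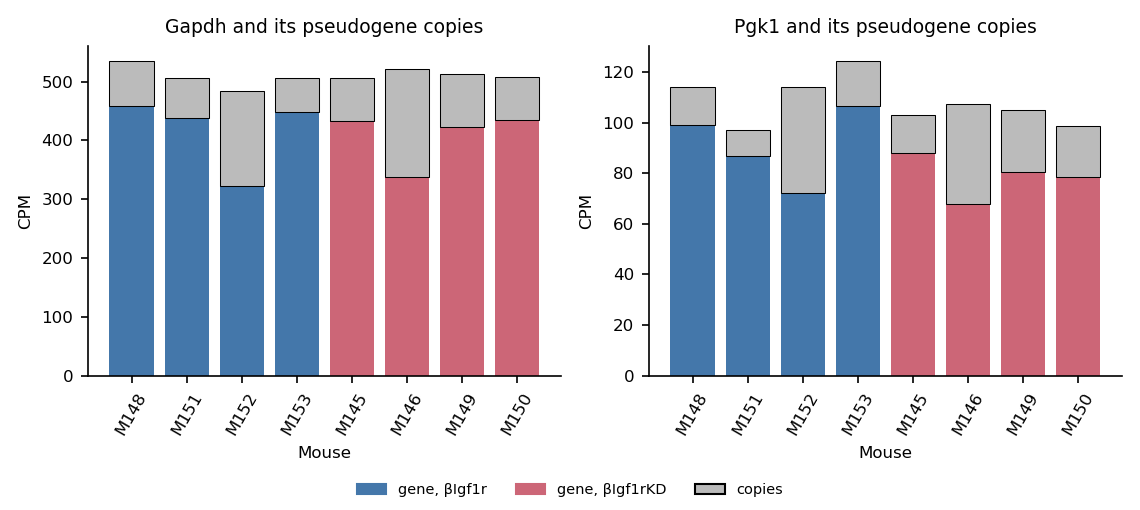
Bars give CPM in each mouse for Gapdh (left) and Pgk1 (right), coloured for the gene by group and grey for the summed pseudogene copies on top. The grey part is largest in M152 and M146, while the full height of the Gapdh bars stays between 483 and 535 CPM.

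Pkm, pyruvate kinase, which forms pyruvate and ATP, was the highest glycolytic member per length of transcript when CPM was divided by the median length of a gene's coding transcripts, at 866 CPM per kilobase over the 8 mice. That value depends on the short transcripts in the annotation. With the longest coding transcript, Pkm was at 258, Gapdh at 290 and Aldoa, the main aldolase, at 280 CPM per kilobase, and Aldoc was the lowest glycolytic member with either length. Pkm reached 605, 623, 702 and 573 CPM in the βIgf1r mice M148, M151, M152 and M153, and 555, 808, 557 and 601 CPM in the βIgf1rKD mice M145, M146, M149 and M150. M146 and M152 were the highest of their groups, and the log2 fold change was 0.01 (SE 0.15). The remaining glycolytic genes had log2 fold changes between -0.10 (Pfkp) and 0.12 (Eno2, the neuron-type enolase), and the smallest standard error of these genes was that of Tpi1, with a log2 fold change of 0.00 (SE 0.07).

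At the entry of pyruvate into mitochondria, Mpc1, a subunit of the mitochondrial pyruvate carrier, was the highest member per median transcript length at 39.3 CPM per kilobase; with the longest transcript it was Pdhb, a subunit of the first enzyme of pyruvate dehydrogenase, at 37.1. Mpc1 reached 28.9, 30.6, 24.4 and 36.4 CPM in the βIgf1r mice M148, M151, M152 and M153, and 32.9, 22.7, 33.0 and 30.7 CPM in the βIgf1rKD mice M145, M146, M149 and M150. M152 and M146 were again lowest, and the log2 fold change was -0.01 (SE 0.15). Mpc2, the partner subunit, had a log2 fold change of -0.00 (SE 0.08), and the 4 subunits of the pyruvate dehydrogenase complex Pdha1, Pdhb, Dlat and Dld had values from -0.06 to -0.01.

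None of the 4 pyruvate dehydrogenase kinases, which switch the complex off, passed the test. Pdk3 (chrX:93764607-93832201, minus strand) had the third largest fold change of the list. It reached 14.0, 12.0, 10.8 and 14.1 CPM in the βIgf1r mice M148, M151, M152 and M153, and 11.3, 10.4, 12.0 and 11.4 CPM in the βIgf1rKD mice M145, M146, M149 and M150. The groups overlapped, since M152 lay below 3 of the βIgf1rKD mice, and the log2 fold change was -0.18 (SE 0.11, 95% interval -0.42 to 0.07, unadjusted p = 0.144), or -0.25 without M152 (unadjusted p = 0.0416), -0.13 without M153 (unadjusted p = 0.308) and 0.069 with the endothelial score (unadjusted p = 0.745). Pdk1 had a log2 fold change of -0.15 (SE 0.11), or -0.24 without M149 (unadjusted p = 0.0373), and Pdk2 of 0.01 (SE 0.14).

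Pdk4, the kinase that rises with fasting and fatty acids in many tissues, was the most variable member, and is described in full for that reason, seen in its values. It reached 9.2, 30.6, 5.9 and 8.1 CPM in the βIgf1r mice M148, M151, M152 and M153, and 19.2, 8.9, 5.7 and 24.2 CPM in the βIgf1rKD mice M145, M146, M149 and M150. Highest and lowest differed 5.36-fold, and each group held both high and low mice. The 3 highest mice, M151, M150 and M145, were also 3 of the 4 mice with high Xist, while the fourth, M146, was at 8.9 CPM; this was seen in the values, and with Xist as a covariate the log2 fold change of Pdk4 was -0.45 (unadjusted p = 0.162). The log2 fold change was 0.11, with a 95% interval of -1.18 to 1.41, so that a change of 2-fold in either direction remains compatible with the data for Pdk4.

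In the TCA cycle, Cs had the smallest p of all members. It encodes citrate synthase, which joins acetyl-CoA to oxaloacetate at the entry of the cycle (chr10:128337734-128362479, plus strand). Its CPM were 67.5, 63.4, 62.1 and 63.5 in the βIgf1r mice M148, M151, M152 and M153, and 74.9, 63.9, 83.8 and 67.6 in the βIgf1rKD mice M145, M146, M149 and M150. Of the βIgf1rKD mice, M145 and M149 lay above all βIgf1r mice, M150 lay barely above the highest of them, M148, and M146 lay among them. The log2 fold change was 0.18 (SE 0.09, 95% interval -0.03 to 0.38, unadjusted p = 0.0800). Without M146 it was 0.23 (unadjusted p = 0.0250), without M146 and M152 together 0.22 (unadjusted p = 0.0470), and with Xist as a covariate 0.23 (unadjusted p = 0.0366), while it was 0.10 without M149 (unadjusted p = 0.247) and 0.14 with the acinar score (unadjusted p = 0.224). No adjusted p was under 0.05 in any of these fits.

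Mdh2, the mitochondrial malate dehydrogenase, was the highest TCA cycle member per length, at 226 CPM per kilobase with the median and 100 with the longest coding transcript. It reached 142, 121, 168 and 145.5 CPM in the βIgf1r mice M148, M151, M152 and M153, and 135, 164, 165 and 129 CPM in the βIgf1rKD mice M145, M146, M149 and M150. Both groups covered nearly the same range, and the log2 fold change was 0.04 (SE 0.12). Idh3g, the regulatory γ subunit of the NAD-dependent isocitrate dehydrogenase, reached 79.9, 71.5, 51.8 and 77.5 CPM in these βIgf1r mice and 69.6, 50.5, 70.3 and 68.5 CPM in these βIgf1rKD mice. Its 2 low values were those of M152 and M146, and the log2 fold change was -0.12 (SE 0.15). Its partner subunits Idh3a and Idh3b had log2 fold changes of -0.10 and 0.01.

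Fh1, fumarase, reached 106, 65.7, 115 and 110 CPM in the βIgf1r mice M148, M151, M152 and M153, and 73.7, 98.4, 116 and 94.9 CPM in the βIgf1rKD mice M145, M146, M149 and M150. One mouse of each group, M151 and M145, lay low, and the log2 fold change was -0.05 (SE 0.19). In the fit that adds the endothelial score, Fh1 had a log2 fold change of 0.71 (unadjusted p = 0.0269) and was the only member with an unadjusted p under 0.05, 1 of 41 (2.44%) against 2.84% of all genes in that fit. The score did not overlap between the groups, so that fit separates it from the group poorly. Ogdh, the first enzyme of the 2-oxoglutarate dehydrogenase complex, and the succinyl-CoA ligase subunits Suclg1, Suclg2 and Sucla2 had log2 fold changes from -0.06 to 0.02, with standard errors of at most 0.10.

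Of the enzymes that link the cycle to the cytosol, Mdh1, the cytosolic malate dehydrogenase of the malate-aspartate shuttle, was highest per length, at 167 CPM per kilobase with the median and 105 with the longest coding transcript. It reached 242, 183, 239 and 244 CPM in the βIgf1r mice M148, M151, M152 and M153, and 224, 249, 209 and 199 CPM in the βIgf1rKD mice M145, M146, M149 and M150. M151 was lowest and M146 highest, so that the groups overlapped over the whole range, and the log2 fold change was -0.04 (SE 0.12). Gpd2, the mitochondrial glycerol phosphate dehydrogenase of the other NADH shuttle, reached 125, 115, 78.7 and 69.3 CPM in these βIgf1r mice and 102, 96.0, 122 and 114 CPM in these βIgf1rKD mice. The 2 low mice, M152 and M153, were both βIgf1r, and the log2 fold change was 0.16 (SE 0.18, 95% interval -0.25 to 0.57). The transaminases Got1 and Got2, the NADP-dependent isocitrate dehydrogenases Idh1 and Idh2, the citrate carrier Slc25a1 and the oxoglutarate carrier Slc25a11 had log2 fold changes from -0.13 (Idh1) to 0.05 (Idh2).

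To remove the library size from the comparison, the log2 ratio of 11 pairs of members was taken within each mouse and tested by exact permutation (two-sided, all 70 ways to assign the mice), where the smallest p is 0.0286. These ratios are not corrected for transcript length and are read between groups only. The largest shift relative to its error was that of the liver-type to the muscle-type phosphofructokinase, Pfkl to Pfkm, at -0.19 ± 0.15 (SD, n = 4) in βIgf1r and -0.02 ± 0.05 in βIgf1rKD, a difference of 0.17 (SE 0.08, exact permutation p = 0.0857, adjusted over the 11 ratios 0.890). The smallest adjusted p of the 11 was 0.890, so that no ratio passed the test. With 11 ratios, 1 ratio alone at the smallest p of 0.0286 would not reach an adjusted p under 0.05 either. The mitochondrial to cytosolic pairs Idh2 to Idh1, Mdh2 to Mdh1 and Got2 to Got1 had differences of 0.19 (SE 0.17), 0.08 (SE 0.10) and 0.04 (SE 0.09). The ratio Pdk4 to Pdk2 spread most, from -2.05 to 0.46 in the βIgf1r mice. Without M146 the ratio Suclg2 to Sucla2, of the GTP-forming and the ATP-forming succinyl-CoA ligase subunits, differed by 0.15 (exact permutation p = 0.0286 with 4 and 3 mice), against 0.07 (SE 0.09) with all mice. Each of the 8 mice was left out in turn for each of the 11 ratios, and only 1 of these tests had a p under 0.05. That p was not adjusted, and it is the smallest possible with 4 and 3 mice.

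**Figure D4:**
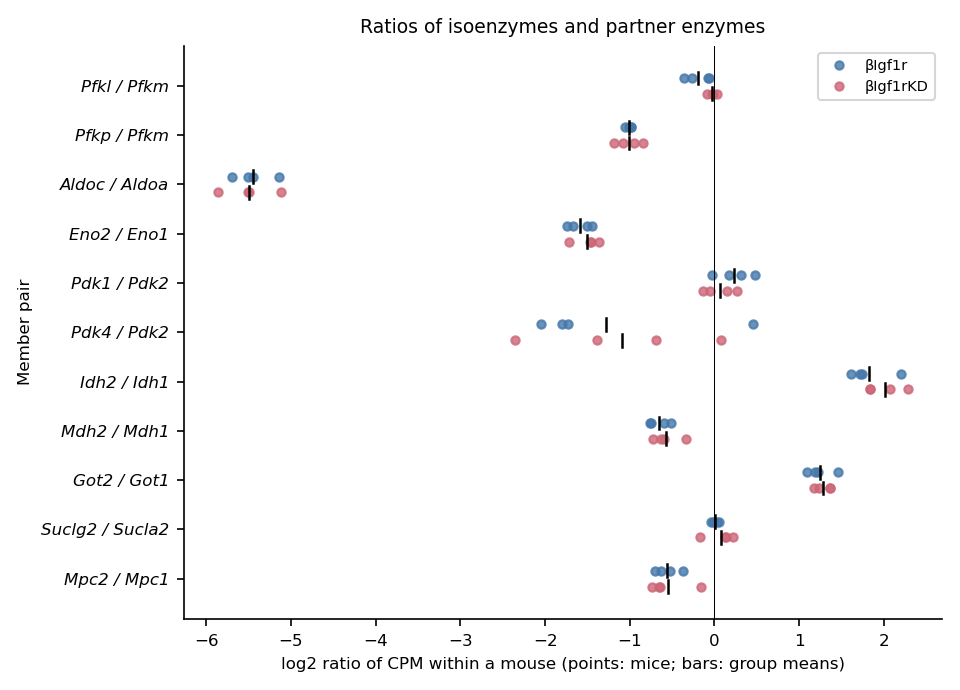
Points give the log2 ratio of CPM of 2 members within a mouse for 11 pairs (rows), blue for the 4 βIgf1r and red for the 4 βIgf1rKD mice, and short bars give the group means. The groups overlap in every pair, and Pdk4 to Pdk2 has the widest spread.

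M152 and M146, the mouse of each group with the lowest mitochondrial share, departed from their groups in the same members. Against the other 3 mice of the group, 31 of 41 members (75.6%) moved in the same direction in both, against 66.9% of all genes tested with a coding transcript. In 8 members (Gapdh, Pgk1, Mpc1, Dlat, Pdk3, Idh3a, Idh3g and Idh1) both lay below all other 6 mice, and in 7 (Pfkl, Pfkm, Aldoa, Eno1, Pkm, Ogdh and Idh2) both lay above them. Over all genes with a coding transcript, 11.9% lay below and 12.97% above in the same way, so the departure was not limited to the members. Members with a higher GC content lay higher in the 2 mice, with Spearman's rho of 0.51 between the mean departure and the GC content of the longest coding transcript over the 41 members and 0.53 over 13872 genes. These correlations are across genes of the same 2 libraries, genes are not independent replicates, and they are given as a description. Without these 2 mice, a fit added after the data were seen, the members at an unadjusted p under 0.05 were 2 of 41 (4.88%), Pgk1 and Cs, against 7.79% of all genes tested in that fit, and 0 at an adjusted p.

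**Figure D5:**
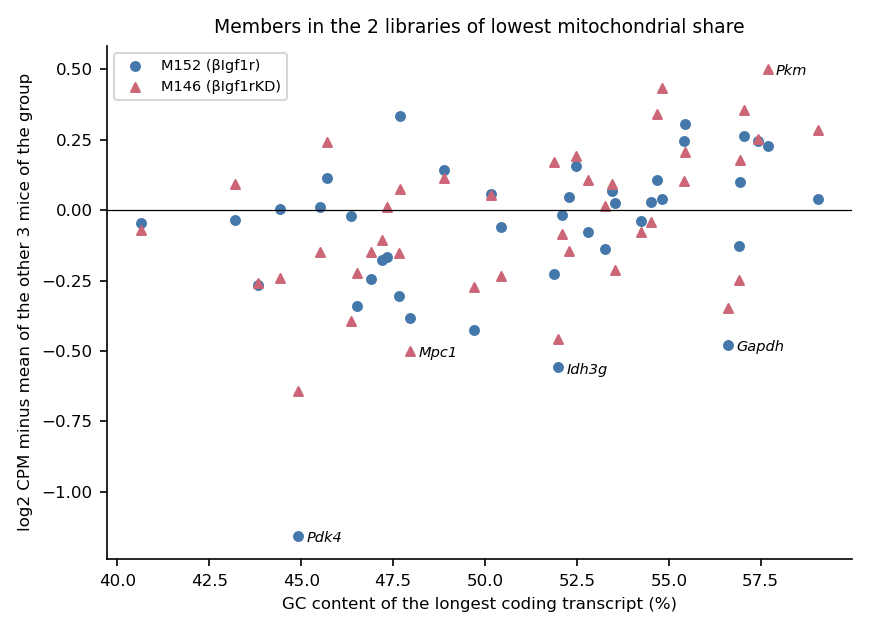
Each of the 41 members is plotted by the GC content of its longest coding transcript in percent (horizontal) and its log2 CPM in M152 (circles) or M146 (triangles) minus the mean of the other 3 mice of that group (vertical). Most members under 50% GC lie below 0 and most above 55% lie above it, Gapdh being an exception at 56.6% GC.

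The members lie on 18 chromosomes, and 4 of them, Pgk1, Pdk3, Pdha1 and Idh3g, on the X chromosome. All 4 were on the lower side in βIgf1rKD, as were 26 of the 41 members. With Xist as a covariate the log2 fold changes of these 4 were -0.19 (Pgk1), -0.14 (Pdk3), 0.03 (Pdha1) and -0.10 (Idh3g). That of Pdha1 changed sign from -0.03.

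The promoters of the members were compared in RefSeq windows of 300 bases, from 250 before to 50 after each start, on GRCm38.p6. These held 59 starts of 40 members. Their median GC content was 60.7%, against 52.7% over all 32851 windows. All windows were taken whatever the level of their genes in islets, and none matched for GC content or level were compared. The GC box GGGCGG stood in 59.3% of the member windows and in 35.7% of all windows, the core of hypoxia response elements ACGTG in 37.3% and 19.6%, the E-box CACGTG, which contains that core, in 10.2% and 7.15%, the TATA box TATAAA in 3.39% and 13.6%, and the FOXO site TGTTTAC in 1.69% and 3.65%, counting both strands. The windows of Pgk1 and Pdk3, the members with the lowest log2 fold changes, are printed with ACGTG and its reverse complement in capitals; a match is a string of letters and no measured site.
Pgk1, chrX:106186850-106187149, plus strand, 2 matches: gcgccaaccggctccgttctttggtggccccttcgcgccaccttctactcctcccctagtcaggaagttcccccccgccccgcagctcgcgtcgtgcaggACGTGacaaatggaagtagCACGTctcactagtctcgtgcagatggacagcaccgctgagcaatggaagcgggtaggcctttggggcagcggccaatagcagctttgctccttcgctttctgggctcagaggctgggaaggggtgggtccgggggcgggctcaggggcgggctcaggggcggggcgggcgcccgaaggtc
Pdk3, chrX:93832101-93832400, minus strand, 1 match: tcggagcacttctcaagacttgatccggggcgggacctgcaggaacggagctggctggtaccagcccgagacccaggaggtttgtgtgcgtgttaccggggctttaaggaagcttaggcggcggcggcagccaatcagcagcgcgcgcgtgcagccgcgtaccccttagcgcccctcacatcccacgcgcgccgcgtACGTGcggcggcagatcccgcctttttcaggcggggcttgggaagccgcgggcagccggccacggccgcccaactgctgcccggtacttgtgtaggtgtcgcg
Of the list of hypoxia response genes, 0 of 16 tested had an unadjusted p under 0.05, with a median log2 fold change of -0.00, and of the list of FOXO and fasting target genes, 0 of 12, with a median of -0.06. Of all genes tested, 4.12% had such a p.

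Other genes of the same pathways that are no members were read from lists by step of the pathway, of which 83 of 89 genes were tested. At an unadjusted p under 0.05 there were 5 of 83 with edgeR, against 4.12% of all genes tested. DESeq2 gave 6, against 4.53%, and limma-voom 3, against 3.65%. At an adjusted p under 0.05 there were 0 by any of the 3 tools. Groups without overlap were seen in 2 of 83, against 2.22% of all genes tested. Adpgk, which phosphorylates glucose with ADP, was higher in βIgf1rKD without overlap, at 13.2 ± 0.679 CPM (SD, n = 4) in βIgf1r and 16.1 ± 1.65 in βIgf1rKD, a log2 fold change of 0.28 (SE 0.10, unadjusted p = 0.0161, adjusted p = 0.987). Me3, a mitochondrial NADP-dependent malic enzyme, was lower without overlap, at 3.45 ± 0.692 and 2.41 ± 0.418 CPM, with a log2 fold change of -0.52 (SE 0.21, unadjusted p = 0.0345). Hk2, a hexokinase, and Hkdc1, a protein with hexokinase domains, had log2 fold changes of 0.69 and 1.86 and were at 0.974 and 0.422 CPM in βIgf1r. Hkdc1 reached 1.78 and 3.74 CPM in the βIgf1rKD mice M145 and M149. In M146 and M150 it was at 0.46 and 0.30 CPM, within the 0.15 to 0.82 CPM of the βIgf1r mice. Adpgk and Me3 were named for their p, and the 21 alternative settings reuse the same mice, so they give no independent support. Over these settings Adpgk had an unadjusted p under 0.05 in 20, and lost it with the endothelial score as a covariate. Me3 had one in 13, and lost it with Xist, the endothelial score or the mitochondrial share as a covariate and without M148, M153, M146 or M150, or M152 and M146 together.

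Glucose entry and the fates of pyruvate outside the members were read in the same fit. Slc2a2, the glucose transporter GLUT2, was at 584 ± 90.8 CPM in βIgf1r and 534 ± 61.2 in βIgf1rKD, a log2 fold change of -0.13 (SE 0.15). Pcx, the pyruvate carboxylase that feeds oxaloacetate into the cycle, had a log2 fold change of 0.09 (SE 0.14). Ldha, the lactate dehydrogenase that β-cells keep low, was at 15.6 ± 4.09 CPM in βIgf1r and 20.7 ± 10.3 in βIgf1rKD, where M149 alone reached 34.7, and its log2 fold change was 0.41 (SE 0.33). None of these 3 genes had an unadjusted p under 0.05. Of the 11 remaining pyruvate dehydrogenase and TCA cycle genes, among them the succinate dehydrogenase subunits, 0 had one either, and their median log2 fold change was -0.03.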

How the data were processed

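Bulk RNA-seq of islets of 4 βIgf1r and 4 βIgf1rKD mice was analysed from 1 table of estimated counts per gene and mouse. Per the labels, the authors used fastp and kallisto with the GRCm38 build, without stated versions, on stranded mRNA libraries; the annotation release is not given in the sources used here. kallisto divides reads that fit several transcripts between them, which bears on genes with near-identical copies. The deposited estimated counts were rounded to whole numbers. Of 53012 genes, 51906 had a symbol. Positions, lengths, GC content and pseudogenes came from GENCODE M21, joined by Ensembl identifier, and copies were found with blastn 2.17.0 at 95% identity over at least 300 bases.

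edgeR 4.0.16 in R 4.3.3 was used with its filter (minimum count 10), TMM factors, the quasi-likelihood test and Benjamini-Hochberg adjustment over 15474 genes; no covariate was used. Log2 CPM had a prior count of 2, and standard errors and 95% intervals came from the fit. Alternatives were RLE and upper-quartile factors, DESeq2 1.42.0, limma-voom 3.58.1, other filters and prior counts, covariates, leaving out mice, and adding copies. The scripts were tested on simulated data. Total counts of 21633925 to 42391106 per mouse gave the members 131 to 24382 counts each. The part of counting error in the spread between mice was not estimated for single members.

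The members and lists were chosen with earlier results of these data known. Named with values in every mouse are members at an unadjusted p under 0.05 or without overlap (none), the 3 largest absolute log2 fold changes, and the highest member per kilobase in each role; Gapdh, Pdk4, Idh3g, Fh1 and Gpd2 were added after their values were seen. Of the other pathway genes, those at an unadjusted p under 0.05 were named, and Slc2a2, Ldha and Pcx in any case; some genes that this rule names are not reported here. Each mouse gave 1 library. Over all genes tested together, libraries of a group differed by far more than sampling noise, with a chi-square per degree of freedom of at least 78.4. This value was not taken for the members alone.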

Additional observations from a re-analysis of the deposited data

Results flagged for a closer look

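Within a group of 4 mice, a value was singled out where its gap to the nearest other mouse took most of the group's range (Dixon's 95% critical value). Of 104 sets of 4 values of members and ratios, 7 were singled out, and chance flags about 1 in 20 sets, here 5.2. Gapdh was at log2 CPM 8.33 in M152, against 8.78 to 8.84 in the other βIgf1r mice, and at 8.3998 in M146, against 8.73 to 8.76 in the other βIgf1rKD mice. Idh3g was at log2 CPM 5.66 in M146, against 6.10 to 6.14, and Ogdh at 7.88 in M146, against 7.67 to 7.70. These 4 values belong to the 2 mice with the lowest mitochondrial share. In the βIgf1r mouse M151, Fh1 was at log2 CPM 6.04, against 6.73 to 6.85, and Mdh1 at 7.52, against 7.90 to 7.93. The log2 ratio of Pdk4 to Pdk2 in M151 was 0.46, against -2.05 to -1.73 in the other βIgf1r mice.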

How the results depend on the processing

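No paired analysis was possible because no mouse number occurs in both groups. In each of the 19 alternatives that tested them, 0 members had an adjusted p under 0.05. Members at an unadjusted p under 0.05 were 1 with Xist as a covariate (Cs), 1 with the endothelial score as a covariate (Fh1), 2 without M152 and M146 together (Pgk1 and Cs, a setting chosen after seeing the data), and 0 to 2 when each mouse was left out (Pgk1 and Pdk3 without M152, Cs without M146, Pdk1 without M149). Of all genes, 7.39%, 2.84% and 7.79% had such a p in the first 3 of these fits, and 7.09%, 6.12% and 3.72% without M152, M146 and M149, against 4.88% for 2 and 2.44% for 1 of 41 members. The median log2 fold change of the members was 0.079 with the endothelial score, 0.010 with Xist, and -0.062 to -0.012 when each mouse was left out. The endothelial score did not overlap between the groups, so all values with it come from a fit that separates it from the group poorly. Other pathway genes at an unadjusted p under 0.05, 5 as reported, numbered 3 with limma-voom, 9 without a filter, 9 with Xist, 2 with the acinar score, 3 with the endothelial score, 3 with the mitochondrial share, 10 without M152 and M146, and from 1 (without M148) and 2 (without M153) to 10 (without M152) when each mouse was left out. Of all genes, 3.65% had such a p with limma-voom, 3.96% without a filter, 2.49% with the acinar score and 4.01% with the mitochondrial share. The share was 2.45% without M148 and 2.56% without M153. The causes were not tested.

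Of the members named by the rule, 5 changed sign in some settings. The log2 fold change of Pkm was -0.0078 with upper-quartile factors, -0.0044 with limma-voom, -0.031 with Xist, -0.092 with the endothelial score, -0.062 with the mitochondrial share, -0.072 without M152 and M146, and -0.13 to 0.0698 leaving out each mouse. That of Mpc1 was 0.019, 0.035, 0.053 and 0.0103 with Xist, the endothelial score, the mitochondrial share and without M152 and M146, and -0.10 to 0.097 leaving out each mouse. Mdh1 was at 0.015 with Xist and 0.18 with the endothelial score, Pdk3 at 0.069 with the endothelial score, and Mdh2 at -0.023 with the mitochondrial share and -0.037 to 0.12 leaving out each mouse. Of the members added after their values were seen, Gapdh (-0.14 to 0.070), Pdk4 (-1.45 to 0.91), Idh3g (-0.24 to 0.091) and Fh1 (-0.21 to 0.71) changed sign over the 21 settings, and Gpd2 did not. Leaving out each mouse, the log2 ratio differences ranged from -0.064 to 0.049 for Pfkp to Pfkm, -0.17 to 0.075 for Aldoc to Aldoa, -0.20 to 0.77 for Pdk4 to Pdk2, -0.0087 to 0.11 for Got2 to Got1, 0.01997 to 0.15 for Suclg2 to Sucla2 and -0.12 to 0.074 for Mpc2 to Mpc1. Levels per kilobase in βIgf1r with the longest transcript were 257 for Pkm, 31.3 for Mpc1, 99.1 for Mdh2 and 107 for Mdh1. With 4 mice a group, any difference inside a printed interval remains compatible with the data.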

Other observations

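Txnip, the thioredoxin-interacting protein, a strongly glucose-responsive transcript of β-cells, had the largest negative log2 fold change among the other pathway lists and is named for that value. It reached 1138, 202, 625 and 899 CPM in the βIgf1r mice M148, M151, M152 and M153, and 578, 150.8, 355 and 231 CPM in the βIgf1rKD mice M145, M146, M149 and M150. The groups overlapped through M151, and the log2 fold change was -1.12 (SE 0.53, edgeR unadjusted p = 0.0603, adjusted p = 0.987). Txnip had an unadjusted p under 0.05 in 3 of 21 alternative settings, without M151, without M145 and without a filter on low counts. Acly, ATP citrate lyase, which splits exported citrate in the cytosol, was abundant at 1787 ± 30.1 CPM (SD, n = 4) in βIgf1r and 1728 ± 123 in βIgf1rKD, with a log2 fold change of -0.05 (SE 0.14).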
